A study of Mus musculus with 6 samples.

Results

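The spliceosome and splicing regulator gene families were followed in the epidermis of newborn mice, comparing 3 libraries labelled Paxbp1 knockout with 3 wild-type libraries. The members were chosen by name: a gene of the deposited table entered if it was protein coding and its symbol began with Prpf, Sf3a, Sf3b, Snrp, Snrnp, Srsf, Hnrnp or Lsm, followed only by digits or lower-case letters. This gave 86 members of 54532 genes. Of these, 48 encode core parts of the splicing machinery, 31 encode the regulators that bind pre-mRNA (11 SR proteins and 20 hnRNP proteins), and 7 belong to neither side. The 7 are 6 Lsm genes with roles outside the U6 ring and Lsmem1, a membrane protein gene that shares only the letters of its symbol. Per the labels' protocols, fat and dermis were taken off the skin, the tissue was held overnight in Dispase II, the rest of the dermis was peeled away, and RNA came from the remaining epidermis. Both groups were prepared alike. The labels do not state the allele, any driver of the deletion, the deleted part of the gene or the number of animals behind each library. P-values therefore refer to the variation among these 6 libraries, which may be technical.

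Splicing removes introns from pre-mRNA. The spliceosome does this with small nuclear ribonucleoproteins (snRNPs), each made of a small RNA, a ring of Sm or Lsm proteins and further proteins particular to that snRNP. SR proteins, with serine and arginine rich tails, mostly favour the use of nearby exons, while many hnRNP proteins coat the transcript and can block splice sites. In stratified epithelia such as the epidermis, these regulators act beside the epithelial factors Esrp1 and Esrp2.

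Paxbp1 itself did not differ between the groups, so the labels could not be checked on the total count of the gene. It had 2370, 1127 and 1125 reads in libraries labelled knockout, against 2007, 1159 and 1467 reads in wild-type libraries (log2 fold change 0.10 ± 0.29 SE, adjusted p = 0.783, edgeR's quasi-likelihood test with Benjamini-Hochberg adjustment over 16471 tested genes). Reads over a deleted part are not separated from the rest in a gene total. The 6 libraries held 16315317 to 17816327 counts. Their levels of cell type markers differed. All 10 keratinocyte markers were lower in knockout libraries, with a summed level of 4730 to 12241 CPM (counts scaled to library size), against 83888 to 138552 CPM in wild-type libraries. All 8 fibroblast markers were higher (3610 to 9338 CPM in knockout, 249 to 259 CPM in wild type), as were all 8 macrophage markers (9307 to 17656 CPM in knockout, 131 to 148 CPM in wild type). All 5 tested neutrophil markers were also higher (3147 to 7848 CPM in knockout, 1.91 to 2.73 CPM in wild type, with Ly6g and Retnlg at 0 in wild type). Endothelial and muscle markers were higher too (3 of 3 tested each), as was 1 of 1 tested for adipocytes and for neurons, while T cell and melanocyte markers each had 1 higher and 2 lower of 4. The part of these cell types in the values of the splicing genes was not tested. In a bulk library, fewer cells of a type and less RNA per cell cannot be told apart.

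Most splicing genes moved little. Of 85 tested members, 3 were higher and 17 lower in knockout at an adjusted p under 0.05, and 65 did not pass. That is 23.5% of the members called, beside 53.8% of all tested genes called in either direction, 28.7% higher and 25.1% lower. The median absolute log2 fold change was 0.36 over the members and 0.90 over all tested genes. All tested genes are not matched to the members for level. The median level was 19.3 FPKM (level per gene length) over the members and 4.84 FPKM over all tested genes. The median SE was 0.246 and 0.293. A change past 1 on the log2 scale was seen in 6 members (7.06%), beside 46.4% of all tested genes. The 6 were Snrpn, Prpf40b, Snrnp25, Prpf19, Hnrnph3 and Hnrnpr, all lower in knockout. The 3 knockout libraries lay wholly above or below the 3 wild-type libraries in 31 members (36.5%, 8 above and 23 below), beside 62.3% of all tested genes (31.9% above and 30.4% below). The members had a median log2 fold change of −0.27, beside −0.03 over all tested genes. With a block for the replicate number, 7 members were higher and 24 lower, beside 30.9% and 29.1% of all genes. Under upper-quartile scaling no member was higher and 26 were lower, beside 25.2% and 31.2% of all tested genes. With library size alone none was higher and 25 were lower, beside 25.5% and 28.6%. The share of members called lower was then near that of all genes. Leaving out 1 library changed the counts to 1 higher and 8 lower without wild-type replicate 3, 1 higher and 11 lower without wild-type replicate 2, 1 higher and 12 lower without wild-type replicate 1, 0 higher and 12 lower without knockout replicate 3, 1 higher and 18 lower without knockout replicate 2, and 7 higher and 18 lower without knockout replicate 1.

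**Figure D1:**
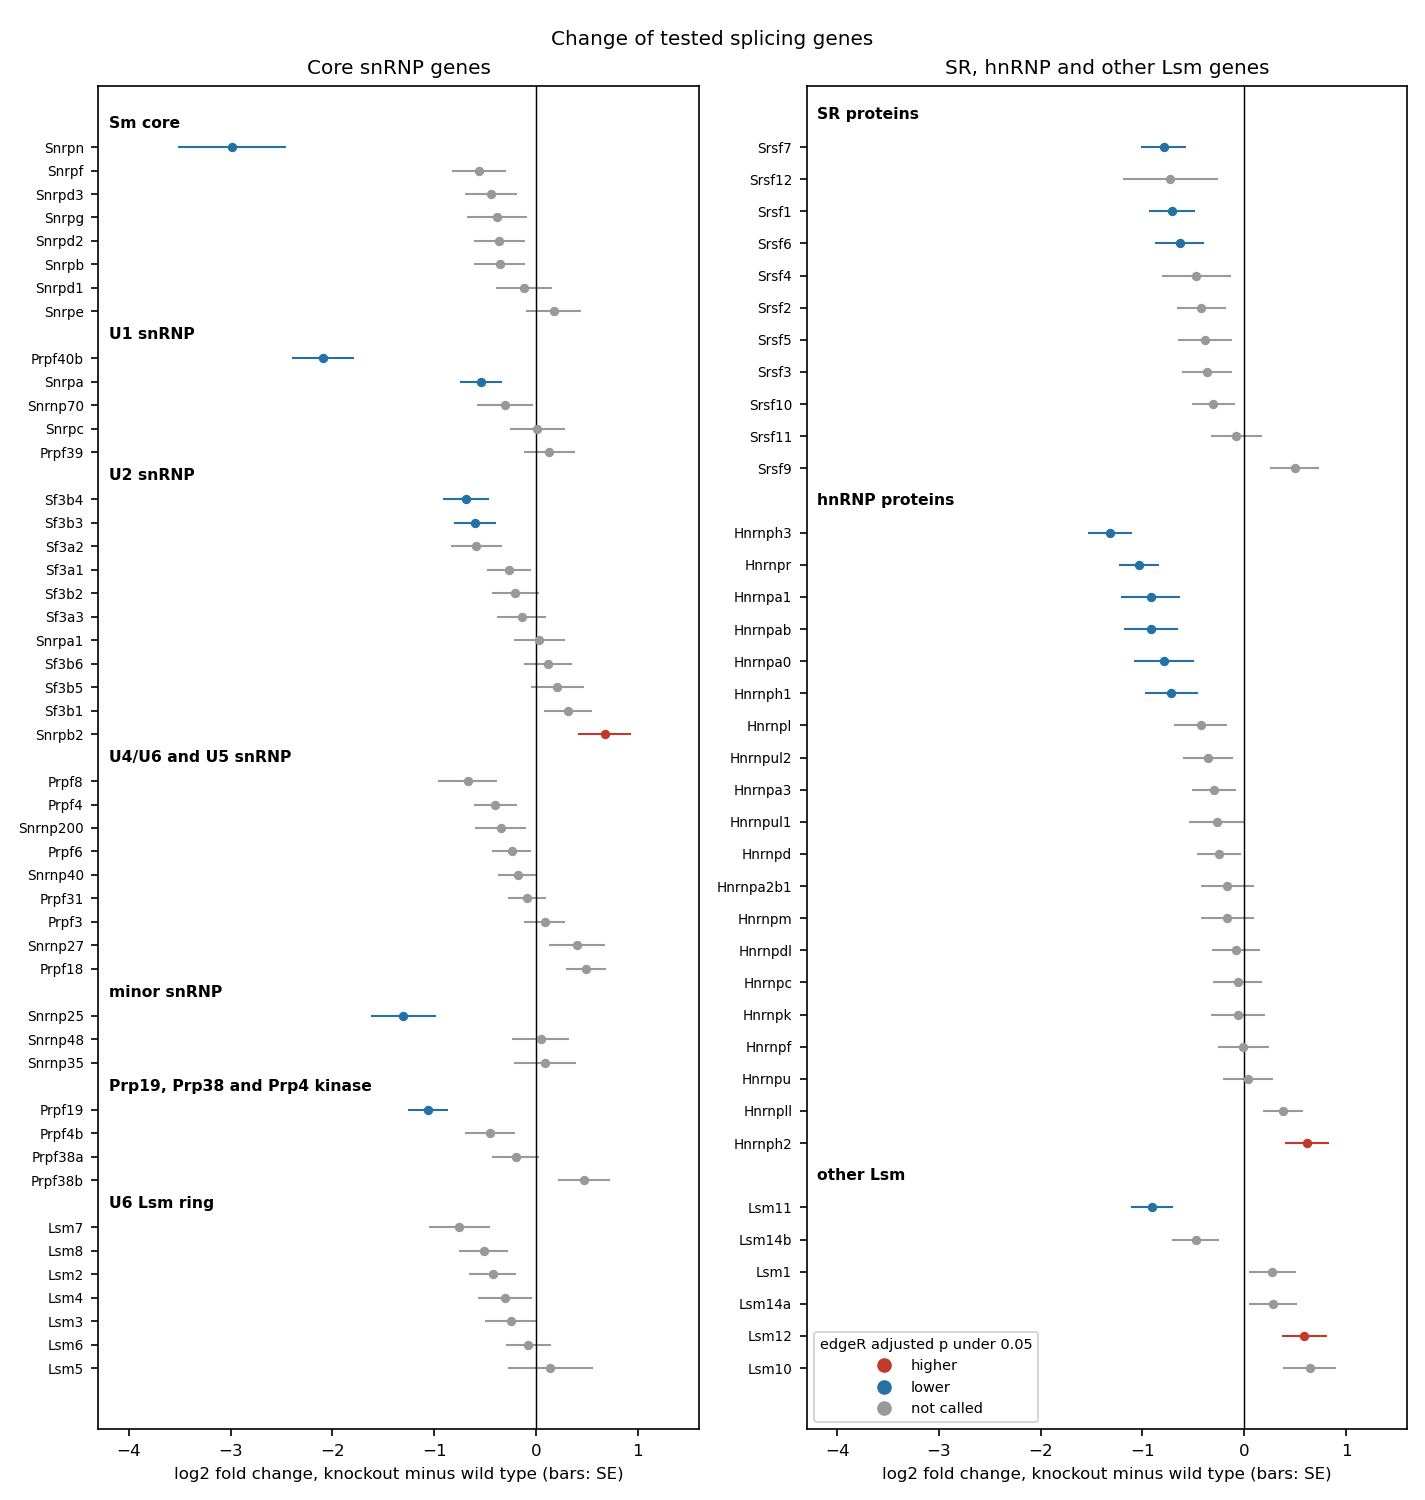
Log2 fold change (knockout minus wild type, bars SE) of the tested members, 1 of them not shown, on the horizontal axis, grouped by role and coloured by the edgeR call. Most points lie between −1 and 1, and the 6 members past −1 include Snrpn at −2.99 and Prpf40b at −2.09.

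The core snRNP genes and the regulators both had negative medians. Among 48 core genes, 1 was higher and 7 lower, with a median log2 fold change of −0.24. Among 31 regulators, 1 was higher and 9 lower, with a median of −0.36. A negative estimate was seen in 27 of the 31, compared with 32 of 48 core genes and 8409 of all 16471 tested genes. In all, 16.7% of the core genes and 32.3% of the regulators were called, beside 53.8% of all tested genes, of which 25.1% were lower, so the regulators' 9 lower calls are a share near that of all genes. The difference between the sides was not tested. Leaving out a library moved these counts: 4 core genes were lower without wild-type replicate 3. Among regulators, 4 were lower without knockout replicate 3 or wild-type replicate 2, and 3 without wild-type replicate 3. The share of all tested genes lower was 21.7% without knockout replicate 3, 20.6% without wild-type replicate 2 and 19.6% without wild-type replicate 3. With the replicate block, 3 core genes were higher and 13 lower, and 2 regulators were higher and 10 lower, beside 30.9% and 29.1% of all genes. Summed over the core genes, the level was 3528, 3783 and 3432 CPM in knockout libraries, against 4138, 3945 and 4085 CPM in wild-type libraries. Over the regulators it was 7510, 8780 and 7099 CPM in knockout libraries, against 9958, 10317 and 9885 CPM in wild-type libraries. Neither sum overlapped between the groups. As a share of all counts, the members together took 1.107 ± 0.110% in knockout and 1.517 ± 0.091% in wild type (SD, n = 3 each).

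**Figure D2:**
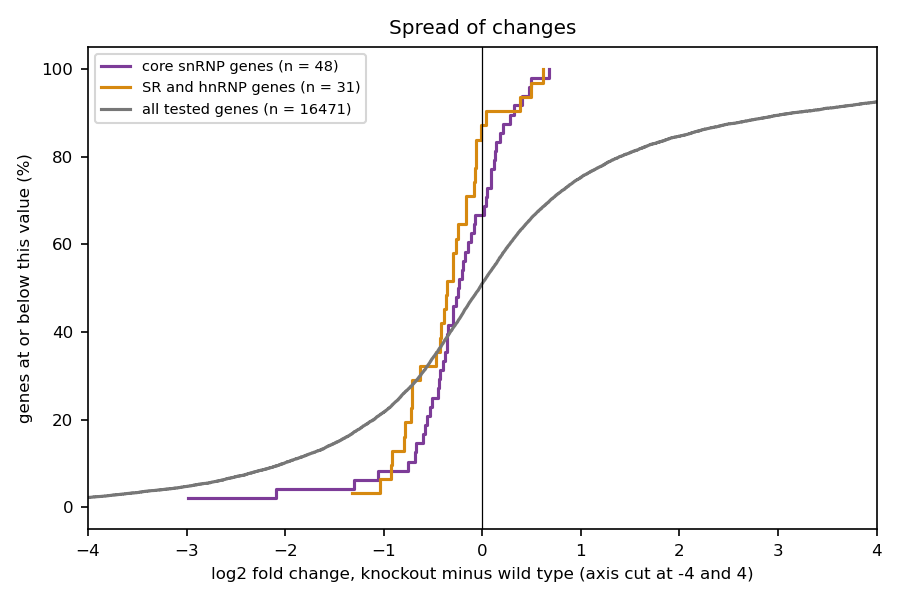
Cumulative share of genes (%) at or below each log2 fold change (knockout minus wild type, shown between −4 and 4), with a line each for core snRNP genes, SR and hnRNP genes and all tested genes. The lines of both member groups are steeper than that of all tested genes and cross the middle at −0.24 and −0.36, beside −0.03 for all tested genes.

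The core side did not move as a block in every knockout library. The median core gene of knockout replicates 1 and 3 lay −0.40 and −0.36 from the wild-type mean on the log2 CPM scale, whereas that of knockout replicate 2 lay at 0.00. The median regulator lay at −0.36, −0.33 and −0.59 in knockout replicates 1, 2 and 3. Knockout replicate 2 was thus near wild type for the middle of the core side, and below it for the middle of the regulators. The deviations of the members within a group also moved with exon length. Spearman's rho between exon length and a gene's deviation from its group mean was 0.54, −0.64 and 0.09 over the members in knockout replicates 1, 2 and 3, and 0.60, −0.48 and −0.20 in wild-type replicates 1, 2 and 3. Across all tested genes the same measure ran between −0.38 and 0.23, while for the difference between the groups it was 0.16 over the core genes, 0.27 over the regulators, 0.08 over all members and 0.02 over all genes. Genes within a library share its depth and RNA quality, so these are descriptions, and the part of gene length in the results was not tested.

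Levels per gene length were highest among the regulators. In deposited FPKM averaged over the 6 libraries, Hnrnpa0 stood at 178, Hnrnpa1 at 177, Hnrnpab at 144, Srsf5 at 143 and Hnrnpa2b1 at 119. The median was 58.0 FPKM over the regulators and 14.7 FPKM over the core genes. The lowest tested member was Srsf12, an SR-related gene, at 0.375 FPKM. Reads of 12 members may be shared with other genes, since over 10% of their 62-base stretches occur elsewhere in the transcripts of the annotation, and 11 members have over 10% of their exon bases inside another gene.

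In the Sm core, the ring shared by the spliceosomal snRNPs, only Snrpn passed the test, falling to near the floor of the counts. Snrpn encodes SmN, a variant of SmB best known from neurons, and lies in an imprinted region read from the paternal copy (chr7:59982495-60140219, mm10, minus strand). It had 5, 25 and 15 reads in knockout libraries, against 107, 161 and 128 reads in wild-type libraries, which is 0.949 ± 0.675 CPM in knockout and 7.49 ± 2.09 CPM in wild type (SD, n = 3 each). Every knockout library lay below every wild-type library (log2 fold change −2.99 ± 0.53 SE, edgeR adjusted p = 0.000688). Snhg14, the long noncoding RNA gene downstream in the same region, had 72, 27 and 21 reads in knockout libraries, against 335, 307 and 174 reads in wild-type libraries (−2.68 ± 0.45, edgeR adjusted p = 0.000475). Snhg14 was chosen after its values were seen. Snurf, whose exons overlap those of Snrpn, was at 0 reads in all 6 libraries, and 34.1% of the exon bases of Snrpn lie in another gene, and how reads there were counted is not stated. Snrpb, which encodes the common SmB and is the most abundant Sm gene at 68.0 FPKM, had 120 ± 33.4 CPM in knockout and 153 ± 22.4 CPM in wild type (log2 fold change −0.36 ± 0.25, edgeR adjusted p = 0.250). The ratio of Snrpn to Snrpb in FPKM was 0.00292, 0.00963 and 0.00740 in knockout libraries, against 0.0412, 0.0517 and 0.0399 in wild-type libraries.

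None of the other 7 genes of the ring passed edgeR's test, and none of them had an unadjusted p under 0.05. Snrpf, the gene for SmF, had 22.1, 40.3 and 24.7 CPM in knockout libraries, against 34.6, 50.7 and 43 CPM in wild-type libraries. The groups overlapped (log2 fold change −0.56 ± 0.27, edgeR adjusted p = 0.1004), but with the replicate block it was lower (−0.59, adjusted p = 0.0158). Of its exon bases, 85.4% lie in genes on the opposite strand, with the strand setting of the counts not given. The median log2 fold change of the 8 Sm genes was −0.37. Without knockout replicate 2, the library whose Sm genes stood highest, 5 Sm genes were lower rather than 1, and with the replicate block 2 were. Of all tested genes, 23.6% were lower without knockout replicate 2 and 29.1% with the replicate block, beside 25.1% in the main fit.

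Around U1, the snRNP that first recognises the 5′ splice site, Prpf40b, a U1-associated gene, and Snrpa, which encodes the A protein of U1, fell, and the other 4 genes did not pass. Prpf40b had 17.7, 7.64 and 12.1 CPM in knockout libraries, against 64.5, 45.7 and 49.3 CPM in wild-type libraries. Its groups lay far apart, at 12.5 ± 5.02 CPM in knockout and 53.2 ± 9.96 CPM in wild type (SD, n = 3 each; log2 fold change −2.09 ± 0.30 SE, edgeR adjusted p = 0.000178). Snrnp70, the U1-70K gene and the most abundant of the U1 genes at 43.4 FPKM, had 301 ± 57.6 CPM in knockout and 371 ± 103 CPM in wild type and did not pass (−0.30 ± 0.28, edgeR adjusted p = 0.385).

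Snrpa and Snrpb2 encode related RNA-binding proteins that sit in U1 (the A protein) and in U2 (the B″ protein), and they moved in opposite directions. Snrpa had 79.8, 76.4 and 57.2 CPM in knockout libraries, against 98.4, 107 and 104 CPM in wild-type libraries (log2 fold change −0.54 ± 0.21 SE, edgeR adjusted p = 0.0469). Of its exon bases, 11.03% lie under a gene on the opposite strand. Snrpb2 had 36.2, 71.9 and 46 CPM in knockout libraries, against 29.3, 32.2 and 35 CPM in wild-type libraries (0.68 ± 0.26, edgeR adjusted p = 0.0489). The groups did not overlap for either gene, and the highest Snrpb2 value was that of knockout replicate 2. Both lay near the threshold. The call of Snrpa was lost on leaving out any library other than knockout replicate 1 (edgeR adjusted p 0.0564 to 0.156), and that of Snrpb2 likewise (0.0558 to 0.211). Snrpa was also not called under RLE scaling, without the filter, with the 1 CPM filter, by DESeq2 or on FPKM, and Snrpb2 not under upper-quartile or library-size scaling, by limma-voom or on FPKM, so that Snrpa lost its call in 11 of 17 alternatives and Snrpb2 in 10. The FPKM ratio of Snrpa to Snrpb2 was 2.13, 1.02 and 1.20 in knockout libraries, against 3.24, 3.22 and 2.86 in wild-type libraries.

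The U2 genes, whose snRNP binds the branch site, split between the directions. Sf3b4, a subunit of the SF3b complex, had 41.1, 34.3 and 53.5 CPM in knockout libraries, against 61, 68.8 and 77.8 CPM in wild-type libraries (log2 fold change −0.69 ± 0.22 SE, edgeR adjusted p = 0.0236). Its groups did not overlap, but 41.0% of its 62-base stretches also occur in another gene's transcripts, so its reads may have been split. Sf3b3, another SF3b subunit, had 130, 108 and 105 CPM in knockout libraries, against 178, 152 and 188 CPM in wild-type libraries (−0.60 ± 0.21, edgeR adjusted p = 0.0309), again with no overlap. Sf3b4 lost its call without knockout replicate 2, wild-type replicate 2 or wild-type replicate 3 (edgeR adjusted p 0.0567 to 0.107). Sf3b3 lost it without knockout replicates 2 or 3 or wild-type replicates 1 or 3 (0.0768 to 0.137), and also without the filter. Sf3b2, the most abundant U2 gene at 63.6 FPKM, had 194 ± 38.1 CPM in knockout and 223 ± 15.7 CPM in wild type and did not pass (−0.20 ± 0.23, edgeR adjusted p = 0.484). Over the 11 U2 genes, 1 was higher and 2 lower, with a median log2 fold change of −0.14.

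None of the 9 genes grouped here with the U4/U6 and U5 snRNPs, which join as the tri-snRNP, passed edgeR's test, with 2 at an unadjusted p under 0.05. DESeq2 and limma-voom also called none, and limma on the deposited FPKM called 1. Prpf18, a factor of the second catalytic step, had 45.7, 61.2 and 54.8 CPM in knockout libraries, against 36.9, 38.5 and 39.4 CPM in wild-type libraries, with no overlap (log2 fold change 0.49 ± 0.20 SE, edgeR adjusted p = 0.0561, and 0.0286 with the replicate block). Prpf18 was also called under RLE scaling (edgeR adjusted p = 0.0444), with the 1 CPM filter (0.0406), without knockout replicate 1 (0.0189) and by limma on FPKM. Prpf8, the large protein at the catalytic centre and the most abundant of these genes at 24.2 FPKM, had 114, 108 and 202 CPM in knockout libraries, against 245, 170 and 261 CPM in wild-type libraries. Knockout replicate 3 overlapped the wild-type range (−0.67 ± 0.29, edgeR adjusted p = 0.0746). Prpf8 was lower with the replicate block (adjusted p = 0.0108) and without knockout replicate 3 (−1.02, adjusted p = 0.0117).

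Among the 3 genes of the minor spliceosome, which removes a rare class of introns, Snrnp25 fell. This U11/U12 protein gene had 9.97, 22.2 and 14.2 CPM in knockout libraries, against 29.5, 50.2 and 34.5 CPM in wild-type libraries, with no overlap (log2 fold change −1.30 ± 0.32 SE, edgeR adjusted p = 0.00509). Snrnp35, a U11/U12 protein gene too, had 5.83, 12 and 9.85 CPM in knockout libraries, against 10, 7.58 and 8.33 CPM in wild-type libraries (0.09 ± 0.31, edgeR adjusted p = 0.826). Its groups overlapped.

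Prpf19, the ubiquitin ligase of the complex that helps to activate the spliceosome, fell to 0.479 of its wild-type level. It had 50.2, 60 and 53.3 CPM in knockout libraries, against 108, 108 and 126 CPM in wild-type libraries, or 54.5 ± 5.02 CPM in knockout and 114 ± 10.4 CPM in wild type (SD, n = 3 each; log2 fold change −1.06 ± 0.20 SE, edgeR adjusted p = 0.000873). The groups were far apart relative to their spread. Prpf38b had 302, 189 and 212 CPM in knockout libraries, against 203, 162 and 141 CPM in wild-type libraries, with overlap (0.47 ± 0.25, edgeR adjusted p = 0.139, and 0.0445 with the replicate block).

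The 7 genes of the Lsm2 to Lsm8 ring, which binds the end of U6, included no call by edgeR's test and 1 at an unadjusted p under 0.05. DESeq2 also called none, while limma-voom called 1. Lsm7 had 24.3, 41 and 17.3 CPM in knockout libraries, against 40.1, 52.7 and 46.2 CPM in wild-type libraries (log2 fold change −0.75 ± 0.30 SE, edgeR adjusted p = 0.0534). Knockout replicate 2 overlapped the wild-type range, and without it the difference passed (−1.15, edgeR adjusted p = 0.0033); with the replicate block the adjusted p was 0.0100. Lsm8 had 19, 28.7 and 18.2 CPM in knockout libraries, against 27.4, 36.5 and 30.2 CPM in wild-type libraries, with the same library overlapping (−0.51 ± 0.24, edgeR adjusted p = 0.0968, and 0.0277 with the replicate block). Lsm4, the most abundant of the ring at 81.2 FPKM, had 76.7 ± 23.4 CPM in knockout and 94.5 ± 20.9 CPM in wild type and did not pass (−0.30 ± 0.26, edgeR adjusted p = 0.360).

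Of 11 SR proteins, 3 passed the test, all of them lower. Srsf7, which also takes part in mRNA export, had 129, 133 and 94.1 CPM in knockout libraries, against 202, 221 and 194 CPM in wild-type libraries (log2 fold change −0.79 ± 0.22 SE, edgeR adjusted p = 0.0102). Srsf1, the founding SR protein, had 213, 252 and 199 CPM in knockout libraries, against 376, 368 and 343 CPM in wild-type libraries (−0.71 ± 0.22, edgeR adjusted p = 0.0205). Neither gene's groups overlapped. Srsf6 had 292, 239 and 201 CPM in knockout libraries, against 411, 388 and 336 CPM in wild-type libraries, also without overlap (−0.64 ± 0.24, edgeR adjusted p = 0.0465). Srsf7 kept its call in all 17 alternatives. Srsf1 lost it without knockout replicate 3 or any wild-type library (edgeR adjusted p 0.0528 to 0.0709), and Srsf6 without any library but knockout replicate 1 (0.0845 to 0.152). Srsf6 also lost it under RLE scaling, without the filter and with the 1 CPM filter. The median log2 fold change of the 11 genes was −0.42, with 10 estimates negative, beside 8409 of all 16471 tested genes. The 3 called genes are 27.3% of the 11, beside 25.1% of all tested genes lower, a share near that of all genes. The groups did not overlap in 7 genes (63.6%, beside 62.3% of all tested genes). Of these 7, 6 lay below wild type and 1 above, beside 30.4% of all tested genes below and 31.9% above. The split by direction was not tested. Srsf5, the most abundant at 143 FPKM, had 504 ± 74.4 CPM in knockout and 658 ± 121 CPM in wild type and did not pass (−0.39 ± 0.27, edgeR adjusted p = 0.251).

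The exception by sign was Srsf9, named after its values were seen, with a log2 fold change of 0.50 (edgeR adjusted p = 0.106, and 0.0401 with the replicate block). Srsf9 is the SR protein most like Srsf1 in its domains. The FPKM ratio of Srsf1 to Srsf9 was 0.606, 0.424 and 0.499 in knockout libraries, against 1.35, 1.07 and 1.04 in wild-type libraries.

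Of 20 hnRNP genes, 6 fell and 1 rose, beside 25.1% of all tested genes lower and 28.7% higher. The 6 lower calls are thus a share near that of all genes. The groups did not overlap in 9 of the 20, a smaller share than the 62.3% of all tested genes. Of these 9, 7 lay below wild type and 2 above, beside 30.4% of all tested genes below and 31.9% above. The members of the hnRNP H family, which bind runs of G, went both ways. Hnrnph3 had 31.3, 31.6 and 29 CPM in knockout libraries, against 87.5, 82.8 and 58.9 CPM in wild-type libraries (log2 fold change −1.32 ± 0.22 SE, edgeR adjusted p = 0.000396). Hnrnph1 had 415, 353 and 291 CPM in knockout libraries, against 662, 599 and 480 CPM in wild-type libraries (−0.72 ± 0.26, edgeR adjusted p = 0.0387). Both were below wild type in every library. Hnrnph2, on the X chromosome, had 101, 149 and 147 CPM in knockout libraries, against 80.4, 85.6 and 92.5 CPM in wild-type libraries, above wild type in every library (0.62 ± 0.22, edgeR adjusted p = 0.0341). The call of Hnrnph3 held in all 17 alternatives, but those of Hnrnph1 and Hnrnph2 were lost on leaving out any library other than knockout replicate 1 (edgeR adjusted p 0.0558 to 0.127 for Hnrnph1 and 0.0686 to 0.102 for Hnrnph2). Hnrnph2 was also not called under upper-quartile or library-size scaling or without the filter. Hnrnph2 shares 13.2% of its 62-base stretches with another gene. The FPKM ratio of Hnrnph3 to Hnrnph2 was 0.430, 0.295 and 0.274 in knockout libraries, against 1.51, 1.34 and 0.884 in wild-type libraries, and that of Hnrnph1 to Hnrnph2 was 3.07, 1.78 and 1.48 in knockout libraries, against 6.16, 5.23 and 3.88 in wild-type libraries.

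**Figure D3:**
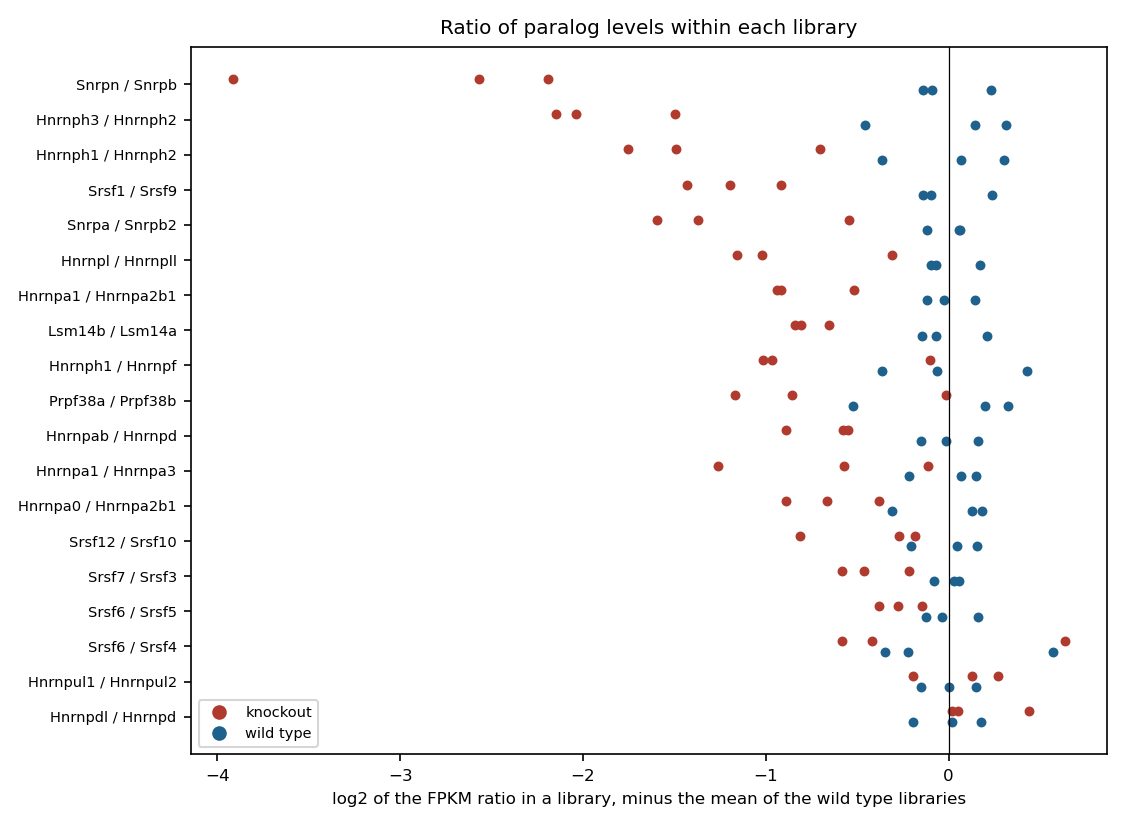
Log2 of the FPKM ratio of paralogous members in each library, minus the mean of the wild-type libraries, with knockout points above wild-type points in each pair. The pairs at the top, where knockout points lie furthest to the left, include Snrpn to Snrpb (ratios 0.00292 to 0.00963 in knockout, 0.0399 to 0.0517 in wild type) and Hnrnph3 to Hnrnph2 (0.274 to 0.430 in knockout, 0.884 to 1.51 in wild type). Of 19 pairs, 12 had every knockout ratio below every wild-type ratio, 0 had every one above, and 7 overlapped, Hnrnph1 to Hnrnpf among them. The direction depends on which gene of a pair was put on top, and pairs were chosen with earlier results known. Some genes also occur in more than 1 pair, so no conclusion is drawn from the split between below and above. No such share was computed for other pairs of genes.

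Hnrnpr, whose product binds mRNA of neurons among others, had 69, 82 and 75.4 CPM in knockout libraries, against 169, 150 and 146 CPM in wild-type libraries (log2 fold change −1.04 ± 0.20 SE, edgeR adjusted p = 0.00105). Its groups lay apart, and its call held in all 17 alternatives. The hnRNP A/B genes include the most abundant members and 3 of them fell. Hnrnpa1, a repressor of exon inclusion, had 311, 538 and 327 CPM in knockout libraries, against 698, 758 and 772 CPM in wild-type libraries (−0.92 ± 0.29, edgeR adjusted p = 0.0194). Hnrnpab had 229, 361 and 259 CPM in knockout libraries, against 459, 551 and 595 CPM in wild-type libraries (−0.92 ± 0.27, edgeR adjusted p = 0.0135). Hnrnpa0, which binds AU-rich elements of mRNA, had 264, 485 and 319 CPM in knockout libraries, against 502, 689 and 651 CPM in wild-type libraries (−0.79 ± 0.30, edgeR adjusted p = 0.0437). None of the 3 overlapped between the groups, and knockout replicate 2 was the nearest to wild type in each. Hnrnpa1 lost its call without knockout replicate 3 or wild-type replicates 2 or 3 (edgeR adjusted p 0.0567 to 0.0713), Hnrnpab without wild-type replicate 3 (0.0544), and Hnrnpa0 without knockout replicates 1 or 3 or wild-type replicates 2 or 3 (0.0982 to 0.132). Hnrnpa0 was also not called on FPKM. Hnrnpa1 shares 27.7% of its 62-base stretches with other genes, and 29.1% of the exon bases of Hnrnpab lie under a gene on the opposite strand.

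**Figure D4:**
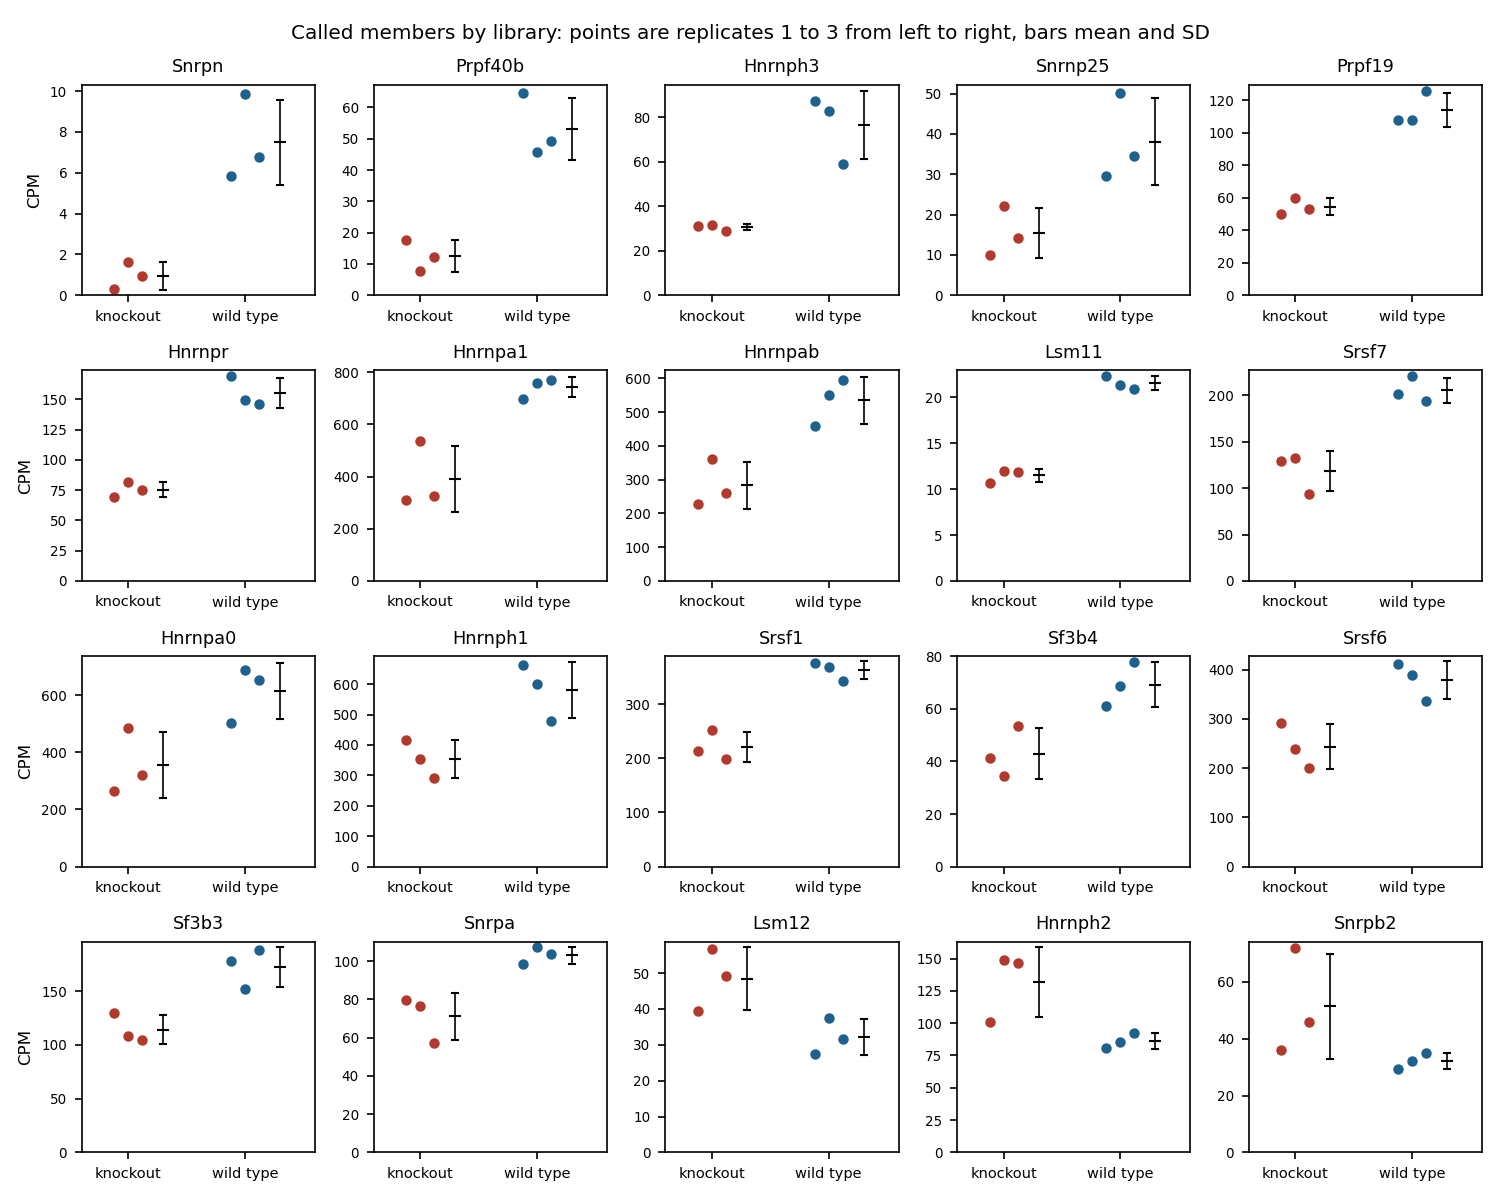
Level (CPM, axis from 0) of the 20 called members in each library, 1 panel a gene, with knockout left of wild type, replicates 1 to 3 from left to right and bars for mean and SD. The panels run from Snrpn, at 0.283 to 1.63 CPM in knockout and 5.84 to 9.84 CPM in wild type, to Snrpb2, at 36.2 to 71.9 CPM in knockout and 29.3 to 35 CPM in wild type.

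Outside the U6 ring, Lsm11 fell and Lsm12 rose. Lsm11, which with Lsm10 forms the U7 snRNP that trims histone mRNA, had 10.7, 12 and 11.9 CPM in knockout libraries, against 22.4, 21.4 and 21 CPM in wild-type libraries (log2 fold change −0.91 ± 0.21 SE, edgeR adjusted p = 0.00361). Its replicates were tight and the groups far apart. Lsm12 had 39.4, 56.8 and 49.2 CPM in knockout libraries, against 27.4, 37.4 and 31.6 CPM in wild-type libraries (0.59 ± 0.22, edgeR adjusted p = 0.0425), without overlap. The call of Lsm12 was lost on leaving out any library other than knockout replicate 1 (edgeR adjusted p 0.0535 to 0.151), and under upper-quartile or library-size scaling, without the filter and by DESeq2. Lsm10, named after its values were seen, had 19.2, 32.8 and 23.4 CPM in knockout libraries, against 12.9, 16.8 and 18.5 CPM in wild-type libraries, opposite in sign to its U7 partner (0.64 ± 0.26, edgeR adjusted p = 0.0569, and 0.0230 with the replicate block). Lsm14a, a processing-body gene and the most abundant of this group at 26.0 FPKM, had 178 ± 42.7 CPM in knockout and 146 ± 14.2 CPM in wild type (0.28 ± 0.24, edgeR adjusted p = 0.337). Lsmem1 was too low to be tested in the main fit: it had 34, 6 and 11 reads in knockout libraries, against 0, 1 and 0 reads in wild-type libraries. It was called higher without the filter, by DESeq2, and without knockout replicate 2 or any 1 wild-type library. The ratio of the summed reads, scaled to TMM effective library sizes, was 55.6 (95% exact counting interval 9.54 to 2238, counting error only). Without knockout replicate 1, which held 34 of the 51 reads, it was 28.9 (4.53 to 1209).

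Of the 20 called members, 8 were called in all 17 alternatives: Snrpn, Prpf40b, Snrnp25, Prpf19, Srsf7, Hnrnph3, Hnrnpr and Lsm11, each of them lower in knockout. The 3 members that rose, Snrpb2, Hnrnph2 and Lsm12, were not among them, and under upper-quartile and library-size scaling none of the 3 passed. Without both libraries numbered 1, the calls of Sf3b4, Srsf1, Hnrnpa1, Hnrnpa0 and Lsm12 were also lost (edgeR adjusted p 0.0504 to 0.0630).

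Promoters were set beside the members that moved in opposite directions. RefSeq windows (GRCm38.p6) from 250 bases before to 50 bases after the gene start, 1 per gene at its most upstream start, matched 74 of the 86 members. The windows below are 5′ to 3′ on the gene's strand, with motif matches in capitals. The hnRNP H genes and the pair Snrpa and Snrpb2 are shown because related genes there differed in direction: Hnrnph1 at chr11:50376740-50377039 (plus strand), Hnrnph3 at chr10:63023800-63024099 (minus), Hnrnph2 at chrX:134600929-134601228 (plus), Snrpa at chr7:27196222-27196521 (minus) and Snrpb2 at chr2:143062819-143063118 (plus).
Hnrnph1: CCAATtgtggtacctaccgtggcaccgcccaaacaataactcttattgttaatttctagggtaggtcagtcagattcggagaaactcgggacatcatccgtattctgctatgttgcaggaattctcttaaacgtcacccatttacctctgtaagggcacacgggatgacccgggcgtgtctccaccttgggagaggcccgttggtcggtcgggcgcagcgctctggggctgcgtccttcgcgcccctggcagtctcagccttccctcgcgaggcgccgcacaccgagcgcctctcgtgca
Hnrnph3: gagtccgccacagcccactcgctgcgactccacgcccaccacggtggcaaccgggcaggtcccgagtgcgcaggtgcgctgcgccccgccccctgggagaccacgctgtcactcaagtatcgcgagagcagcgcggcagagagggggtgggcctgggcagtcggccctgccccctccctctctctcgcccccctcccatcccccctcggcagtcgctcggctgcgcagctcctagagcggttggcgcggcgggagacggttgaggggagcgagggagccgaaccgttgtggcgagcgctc
Hnrnph2: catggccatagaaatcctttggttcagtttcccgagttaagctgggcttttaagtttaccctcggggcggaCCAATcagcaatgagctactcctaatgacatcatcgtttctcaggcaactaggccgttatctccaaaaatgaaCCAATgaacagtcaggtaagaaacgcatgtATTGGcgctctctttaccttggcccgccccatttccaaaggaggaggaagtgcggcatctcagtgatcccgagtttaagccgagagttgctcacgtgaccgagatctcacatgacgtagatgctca
Snrpa: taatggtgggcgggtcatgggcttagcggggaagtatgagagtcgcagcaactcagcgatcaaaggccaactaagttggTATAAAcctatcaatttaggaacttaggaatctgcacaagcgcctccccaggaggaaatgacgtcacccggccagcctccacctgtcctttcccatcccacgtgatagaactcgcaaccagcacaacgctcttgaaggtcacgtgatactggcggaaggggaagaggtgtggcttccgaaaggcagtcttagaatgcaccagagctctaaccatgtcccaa
Snrpb2: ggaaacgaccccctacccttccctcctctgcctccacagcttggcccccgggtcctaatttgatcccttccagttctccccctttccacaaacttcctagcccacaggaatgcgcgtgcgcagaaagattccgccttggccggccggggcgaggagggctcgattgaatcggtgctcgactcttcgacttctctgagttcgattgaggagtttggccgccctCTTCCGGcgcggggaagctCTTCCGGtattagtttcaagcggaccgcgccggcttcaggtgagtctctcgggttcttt
The capitals mark CCAAT (NF-Y; ATTGG on the other strand) in Hnrnph1 and Hnrnph2, TATAAA in Snrpa and CCGGAAG (ETS; CTTCCGG on the other strand) in Snrpb2. The window of Hnrnph3 holds none of the letters searched. Its RefSeq start lies 368 bases inside the gene as deposited, so the window does not reach the deposited start. That distance is 30 bases for Snrpb2 and 0 for Hnrnph1, Hnrnph2 and Snrpa.

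Over both strands, CCGGAAG occurred in 40.0% of 40 core windows, 20.7% of 29 regulator windows and 11.9% of 17492 windows of protein-coding genes. The letters CCAAT occurred in 40.0% of core, 55.2% of regulator and 39.2% of all windows. TTTCCCGC (E2F) was in 0 core windows, 10.3% of regulator windows and 1.46% of all windows. TATAAA was in 7.5% of core, 13.8% of regulator and 13.3% of all windows. AAGATGGC (YY1) was in 7.5% of core, 3.45% of regulator and 3.21% of all windows, and GCATGCGC (NRF1) in 7.5% of core, 3.45% of regulator and 3.61% of all windows. No motif's letters lie within another's. These shares describe letters in the windows and were not tested against the changes.

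Further genes of the pathway were followed as 3 lists. Of 62 tested genes for further spliceosome proteins, 8 were higher and 4 lower, with a median log2 fold change of 0.02. That is 19.4% called, beside 53.8% of all tested genes. Smndc1, which acts in assembly of the spliceosome, had 72.4 ± 9.89 CPM in knockout and 40.3 ± 3.86 CPM in wild type (0.84, edgeR adjusted p = 0.00469). The helicase gene Dhx38 rose by 0.88 and Bud31 by 0.92. The cyclophilin genes Ppie and Ppil1 fell by 0.95 and 0.76 on the log2 scale, and Sart3, which recycles U6, fell by 0.53. Of 19 tested genes for snRNP assembly, 4 passed the test, all of them lower, with a median of −0.34. That is 21.1%, beside 25.1% of all tested genes lower. The 4, named after their values were seen, were the SMN complex genes Gemin8 (−1.41) and Gemin2 (−0.82), the Sm methylase gene Prmt5 (−0.84) and the Cajal body gene Coil (−0.67).

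Splicing regulators outside the member families were followed in the same way. Of 59 tested, 4 were higher and 13 lower, with a median log2 fold change of −0.23. That is 28.8% called and 20.3% past 1 on the log2 scale, beside 53.8% and 46.4% of all tested genes. Srpk1, the kinase of SR proteins, had 81.7 ± 32.3 CPM in knockout and 419 ± 69 CPM in wild type (SD, n = 3 each; −2.36 ± 0.31 SE, edgeR adjusted p = 8.52e-05). The cold-induced Cirbp fell by 1.31 and Tia1, a stress granule gene, by 1.40. Celf2, a factor of muscle, nerve and blood cells, had 127 ± 22.6 CPM in knockout and 16.6 ± 1.1 CPM in wild type (2.94 ± 0.22, edgeR adjusted p = 1.55e-06). Nova1, best known from neurons, rose by 3.61 at a low level (3.3 ± 0.77 CPM in knockout, 0.269 ± 0.161 CPM in wild type), and Qk rose by 1.35. Esrp1 and Esrp2, the epithelial splicing factors, were named after their values were seen. Esrp1 had 82.4 ± 49.7 CPM in knockout and 338 ± 26.8 CPM in wild type (−2.04, edgeR adjusted p = 0.00118), and Esrp2 had 80.3 ± 61.8 CPM in knockout and 268 ± 35 CPM in wild type (−1.74, edgeR adjusted p = 0.00638). These moved beside the lower keratinocyte and higher fibroblast and macrophage sums given above, whose part was not tested.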

How the data were processed

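RNA was sequenced in 6 libraries, grouped by the labelled genotype. HISAT2 2.0.5, featureCounts 1.5.0-p3 and mm10 are listed in the submitters' processing notes, with no strand setting or annotation stated there. The authors deposited whole-number counts per gene and, in a separate table, FPKM, whose library denominators are not the totals of the count columns; FPKM served for levels between genes, paralog ratios and an alternative.

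Counts were filtered with filterByExpr (minimum count 10, minimum total 15), TMM-scaled and tested by genotype with edgeR 4.0.16's quasi-likelihood test in R 4.3.3, with Benjamini-Hochberg adjustment over 16471 genes and a threshold of 0.05. CPM used TMM effective sizes. The test was checked on simulated counts of 16028 genes, with 46 to 49 genes changed at each fold. It recovered 0% of 1.5-fold, 30.6% of 2-fold, 81.6% of 4-fold and 95.7% of 8-fold changes, with 10 false calls. A gene that did not pass may thus still have changed by a small fold. Far fewer genes changed there than were called in these data, so these shares are a rough guide. Alternatives were other scalings and filters, DESeq2 1.42.0, limma-voom and limma on log2(FPKM + 1) and log2(FPKM + 0.1) (limma 3.58.1), a replicate block, assignment of sides by prefix alone, and each library left out; leaving out both libraries numbered 1, and knockout replicate 1 for Lsmem1, was added after the data were seen.

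Replicate numbers were read from the titles, which do not say what a number marks. Deviations from group means correlated at 0.18, 0.27 and 0.15 for same-numbered libraries and at −0.25 to 0.06 for the others. From the data alone, the numbers were therefore treated as pairs, but only in the replicate block. The main test, which gave the calls, SE and adjusted p-values, did not use the pairing. Members, roles, paralog pairs and gene lists were chosen with earlier results of these data known. Named are all called members, the top 2 of each role by adjusted p, its most abundant member, and the top 3 in each direction of the lists of other splicing genes. The NRF1 motif was shortened to 8 letters after a first search. No sequence is printed for members on chromosome 18. Isoforms are summed in the counts. The values of 1 member are not reported here.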

Additional observations from a re-analysis of the deposited data

How the results depend on the processing

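No call among the 85 tested members reversed direction: of 1445 member values across the 17 alternatives, 1313 stayed on the same side of the threshold, 78 calls were lost and 54 gained. The all-gene median was −0.22 under upper-quartile and −0.18 under library-size scaling, beside −0.03 with TMM. Under upper-quartile scaling 0 core genes were higher and 15 lower, 0 regulators were higher, and the regulator median was −0.55, with 31.2% of all genes lower. Under library-size scaling 0 core genes were higher and 14 lower, 0 regulators were higher, and the regulator median was −0.52, with 28.6% of all genes lower. Relative to all genes, the core median stayed at −0.21 and the regulator median at −0.33 and −0.34, beside −0.33 with TMM. Core genes called higher were 2 with RLE scaling, 2 with the filter of 1 CPM in 3 libraries, 2 with sides by prefix alone and 0 with limma-voom. No regulator was higher without the filter (0). With the replicate block, 3 core genes were higher and 13 lower and 2 regulators were higher; the block lost none of the 20 calls. Leaving out 1 library at a time gave 0 to 3 core genes higher, 4 to 10 core genes lower, 0 to 2 regulators higher and 3 to 9 regulators lower, with the core median at −0.36 to −0.16 and the regulator median at −0.38 to −0.26. The cause of these shifts was not tested. Precision is limited by 3 libraries a group, and for Snrpn and Lsmem1 by few reads.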
